A study of Mus musculus with 6 samples.

Results

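Complement is a set of secreted and membrane proteins that tag surfaces for removal. The genes described are 9 of its members in the mouse uterus, chosen by name from the 26586 genes of a count table: the activation components C3, C4b, C2, Cfb and Cfd, and the regulators Cfi, Cd55, Cd59a and Serping1. The 3 genes of C1q were left out of this choice, which was made with earlier results of these data known. All 9 symbols were found in the table, 8 had enough reads to be tested, and Cfd did not.

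The cells came from uteri of 3 mice carrying Axin2rtTA and tetOH2BJGFP, in which the Axin2 promoter drives the rtTA activator and doxycycline then turns on a histone-GFP fusion. Ovaries of all 3 mice were removed at 4 weeks of age, and doxycycline followed after a rest of 2 weeks. Uteri were taken 4 days after that, from animals then 6 weeks old. An epithelial isolate of the endometrium was sorted into a GFP+ fraction, labelled Axin2+, and a GFP- fraction, labelled Axin2-, which made 6 libraries of total RNA, 3 per fraction. Library numbers are mouse numbers per the labels, which also speak of pooling the cells, so if cells were mixed across mice the p-values measure only the spread between libraries. Each library held between 49714402 and 59597315 gene counts. The comparison asks how transcript levels differ between the GFP+ and the GFP- fraction, which the labels call Axin2+ and Axin2-.

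The labels were checked against Axin2 and against cell type markers. Axin2 itself stood at 356 to 369 CPM (the usual library-scaled count unit, here with TMM factors) in the libraries labelled Axin2- and at 165 to 299 CPM in those labelled Axin2+. Its log2 fold change of -0.61 ± 0.21 (SE) missed the threshold (edgeR adjusted p = 0.0710), so the transcript did not bear out the labels, and every direction below is that of the libraries as labelled. All 16 epithelial markers, such as Esrp2, Spint2 and Krt19, were higher in the libraries labelled Axin2+, with summed levels of 2737 to 3936 CPM against 244 to 352 CPM. Stromal fibroblast markers summed to 11780.0 to 23821 CPM in the libraries labelled Axin2- and to 3581 to 5001 CPM in those labelled Axin2+, and smooth muscle markers to 2437 to 6604 CPM and 261 to 400.2 CPM. The libraries labelled Axin2- thus held mostly non-epithelial transcripts among these markers, although the labels call both fractions epithelial. In those labelled Axin2+ the stromal sums, 4197, 3581 and 5001 CPM in mice 1, 2 and 3, also exceeded the epithelial sums. The epithelial sums there were 3936, 3309 and 2737 CPM. In bulk RNA of this kind, fewer cells of a type and less RNA per cell cannot be told apart.

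Complement can be started by antibody through C1q, by sugars through lectins, or by the alternative route, in which C3 that has reacted with a surface binds factor B. Each route builds an enzyme that cleaves C3: C4b with C2 in the classical and lectin routes, C3b with factor B in the alternative route. Regulators take these enzymes apart, and in the mouse uterus C3 is best known as a secreted product of the epithelium whose synthesis estrogen raises.

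Of the 8 tested genes, 5 rose in the libraries labelled Axin2+ (C3, C2, Cfb, Cfi and Cd59a), 0 fell and 3 did not pass. Over all 16896 tested genes 14.5% were higher and 12.8% lower by the same rule, an adjusted p under 0.05 in edgeR's quasi-likelihood test. These are 2447 and 2171 genes, and scaling by library size alone, which moved the median of all genes to 0.16, gave 3255 and 1573. The 8 genes had a median log2 fold change of 1.53, against -0.01 over all tested genes. The members were chosen with earlier results of these data known, so these shares and medians do not test the set. Of the 8 tested genes the 5 that passed, and no others, had every library labelled Axin2+ above every library labelled Axin2-. That order was found in 23.9% of all tested genes, and in genes that passed it adds little to the calls. At an unadjusted p under 0.05 no member was lower either, and DESeq2 called 0 lower and 5 higher. Leaving out mouse 3's library labelled Axin2- left 3 of the 5, because C3 and Cd59a no longer passed.

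**Figure D1:**
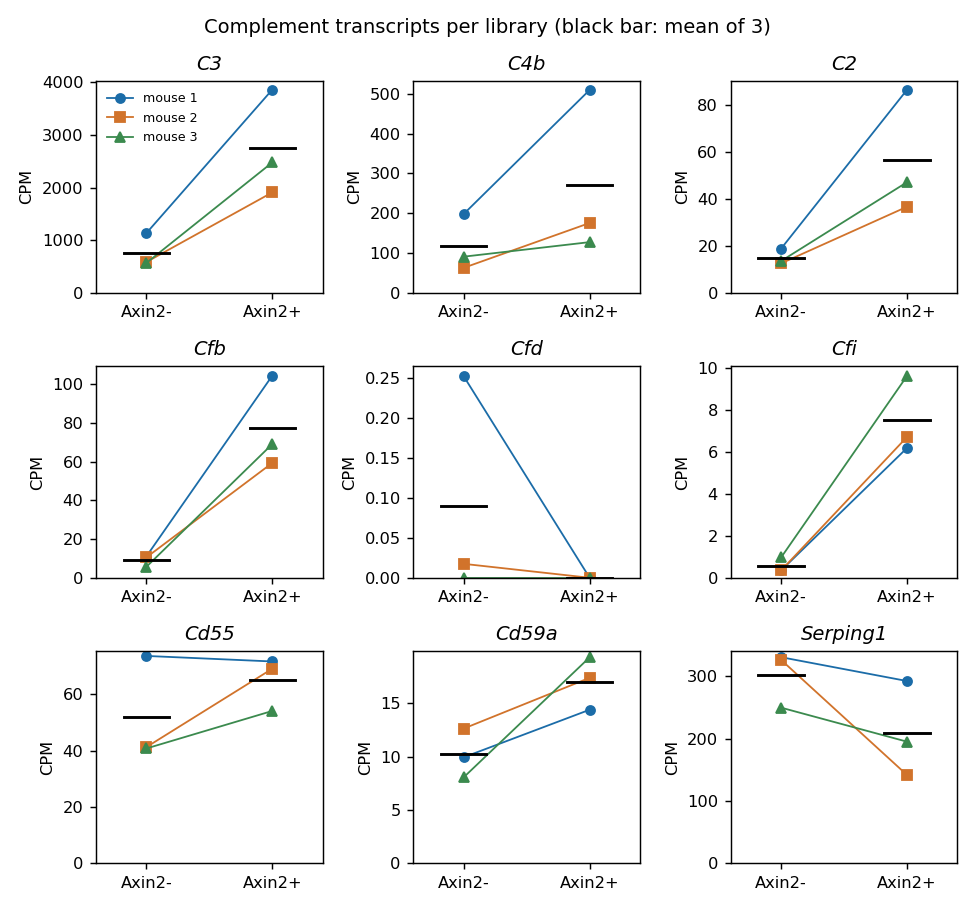
CPM of each of the 9 complement genes (vertical axes, each from 0) in the libraries labelled Axin2- and Axin2+ (horizontal axes). Symbols and lines mark the 3 mice and black bars the means. C3, C2, Cfb, Cfi and Cd59a are higher in all 3 libraries labelled Axin2+, C4b, Cd55 and Serping1 overlap between the fractions, and Cfd is at 0 in all libraries labelled Axin2+.

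C3 is the protein on which all routes converge, and its transcript was by far the most abundant of the 9. It stood at 1129.8, 581 and 563 CPM in mice 1, 2 and 3 among the libraries labelled Axin2-, and at 3860.3, 1906 and 2476 CPM in those labelled Axin2+. Mouse 1 was highest in both fractions, and the lowest library labelled Axin2+ was above the highest labelled Axin2-. The means were 758 ± 322 and 2748 ± 1005 CPM (SD, n = 3 libraries each, here and in later values written with ±, unless SE is named), a 3.62-fold difference with a log2 fold change of 1.86 ± 0.38 (SE, edgeR adjusted p = 0.0115). Within mice 1, 2 and 3 the level was 3.42, 3.28 and 4.40 times as high in the library labelled Axin2+. C3 took 0.0504 to 0.110 percent of all counts in the libraries labelled Axin2- and 0.201 to 0.404 percent in those labelled Axin2+. Without mouse 3's library labelled Axin2- it missed the threshold (log2 fold change 1.70, edgeR adjusted p = 0.0501).

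C3 lies on chromosome 17 from 57203970 to 57228136 on the minus strand of mm10. Its RefSeq promoter window and that of Cd59a are shown because these genes rose and both windows hold a match to a searched motif. Windows were found for 4 of the 9 genes (C3, Cd59a, Cd55 and Cfd). Each runs from 250 bases before to 50 after the gene start in GRCm38.p6, on the strand of the gene. Capitals mark matches, in C3 a C/EBP-type match and then TATAAA, and in Cd59a a match to the interferon-stimulated response element.
C3, chr17:57228087-57228386, minus strand: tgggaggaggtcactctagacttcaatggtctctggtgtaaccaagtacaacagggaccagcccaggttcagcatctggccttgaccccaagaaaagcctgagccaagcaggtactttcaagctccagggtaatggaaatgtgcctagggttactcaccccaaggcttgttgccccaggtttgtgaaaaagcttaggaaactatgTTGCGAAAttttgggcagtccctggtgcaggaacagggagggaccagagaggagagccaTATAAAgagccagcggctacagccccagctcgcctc
Cd59a, chr2:104095551-104095850, plus strand: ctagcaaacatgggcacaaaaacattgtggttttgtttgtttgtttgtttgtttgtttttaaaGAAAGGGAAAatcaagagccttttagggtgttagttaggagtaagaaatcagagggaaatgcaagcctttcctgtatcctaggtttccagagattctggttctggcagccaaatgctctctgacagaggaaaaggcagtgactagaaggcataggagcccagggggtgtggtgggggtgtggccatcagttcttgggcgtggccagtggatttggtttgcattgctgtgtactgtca

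The C/EBP motif was searched as TTGCNNAA, and its match in C3 begins 45 bases before the gene start. It occurs in 10.8% of 32851 windows of this length. TATAAA begins 14 bases after the gene start of C3, inside the annotated gene, and occurs in 13.6% of windows. The interferon-stimulated response element was searched as GAAA, any 2 bases, GAAA, occurs in 3.44% of windows and begins 187 bases before the start of Cd59a. Also searched on both strands were the estrogen response element (GGTCA, any 3 bases, TGACC; 0.07% of windows), the STAT site TTCNNNGAA (8.3%), CCAAT (37.4%) and the NF-kB consensus (4.51%), and none of these was in the 4 windows. Such matches describe the letters and do not show binding.

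C4b encodes C4, whose larger fragment forms the base of the classical C3-cleaving enzyme. It stood at 198, 62.4 and 90.4 CPM in mice 1, 2 and 3 among the libraries labelled Axin2-, and at 509.7, 175 and 127 CPM in those labelled Axin2+. The fractions overlapped, since mouse 1 was high in both. The log2 fold change of 1.21 ± 0.61 (SE) missed the threshold (edgeR adjusted p = 0.185), and it was 0.37 without mouse 1's library labelled Axin2+. Within mice 1, 2 and 3 the library labelled Axin2+ was 2.58, 2.81 and 1.404 times as high. With the mouse as a block, the pairing that the labels give, C4b passed (log2 fold change 1.12, edgeR adjusted p = 0.0277). It also passed by a narrow margin with both libraries of mouse 1 left out (log2 fold change 1.01).

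C4b has a near-identical copy, C4a, that is also counted. In GENCODE M21, 35.2% of the 50-base windows of the longest coding C4b transcript occur in a C4a transcript, and 16.5% of the 100-base windows. How the counting treated reads that fit both is not given in the sources used here. C4a held 73 to 182 reads per library, against 3571 to 29544 for C4b. With the reads of both added the log2 fold change was 1.18 and did not pass (edgeR adjusted p = 0.190).

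C2 and Cfb encode the proteases that give the classical and the alternative enzyme their cutting activity. They are neighbours on the minus strand of chromosome 17, C2 from 34862604 to 34898265 and Cfb from 34856374 to 34862518 in mm10, with 85 bases between them. C2 stood at 18.8, 12.5 and 13.5 CPM in mice 1, 2 and 3 among the libraries labelled Axin2-, and at 86.6, 36.6 and 47.1 CPM in those labelled Axin2+. Mouse 1 was again highest in both fractions. The means were 14.9 ± 3.39 and 56.8 ± 26.3 CPM, a log2 fold change of 1.93 ± 0.34 (SE, edgeR adjusted p = 0.00743).

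Cfb stood at 10.97, 10.5 and 5.60 CPM in mice 1, 2 and 3 among the libraries labelled Axin2-. Those labelled Axin2+ gave 104, 59.3 and 68.99 CPM, every one more than 5-fold above its own mouse's other library. The means were 9.02 ± 2.97 and 77.5 ± 23.7 CPM, an 8.59-fold difference (log2 fold change 3.10 ± 0.33 SE, edgeR adjusted p = 0.00106). The ratio within mice 1, 2 and 3 was 9.51, 5.65 and 12.3 for Cfb, against 4.61, 2.94 and 3.49 for its neighbour C2. Cfb thus rose further than C2 in each mouse, a difference that was not tested. GENCODE M21 also holds a transcript unit, Gm20547, that spans both genes and shares 79.5% of the exon bases of Cfb and 42.8% of those of C2. That unit is not among the genes of the count table, and C2 shares 4.16% of its exon bases with Zbtb12 on the opposite strand, which is.

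Cfd encodes factor D, or adipsin, the protease that activates factor B and is made mainly by fat cells. It had 13, 1 and 0 reads in mice 1, 2 and 3 among the libraries labelled Axin2-, and 0 in all 3 labelled Axin2+. Summed over each fraction, 14 reads against 0 make it at least 4.89-fold lower in the libraries labelled Axin2+, with a floor of 3 reads over the fraction, which covers counting error only. That bound rests on mouse 1, because the other libraries labelled Axin2- hold 1 read, less than the floor. The defining fat cell gene Adipoq had 2, 0 and 0 reads in mice 1, 2 and 3 among the libraries labelled Axin2-, and 3, 0 and 0 among those labelled Axin2+. All 8 fat cell markers together summed to 13.9 to 54.1 CPM and to 17.7 to 91.2 CPM. Most of each sum came from Lpl and Plin4, so the sums say little about Adipoq and the other markers. Lpl stood at 6.59 to 36.1 CPM and at 15.8 to 87.3 CPM, and Plin4 at 7.15 to 15.7 CPM and at 1.05 to 2.78 CPM. The part of fat cells in the Cfd reads was not tested. Of the 5 activation components described, 3 rose, C4b passed only within mice or without mouse 1, and Cfd was near the detection limit.

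Cfi encodes factor I, the soluble protease that inactivates C3b and C4b, and it had the largest fold change of the 8 tested genes. It stood at 0.350, 0.350 and 0.968 CPM in mice 1, 2 and 3 among the libraries labelled Axin2-, or 18, 20 and 47 reads. Those labelled Axin2+ gave 6.18, 6.70 and 9.60 CPM, or 358, 355 and 516 reads. Mouse 3 was highest in both fractions, unlike C3, C2 and C4b, where mouse 1 was. The means were 0.556 ± 0.357 and 7.49 ± 1.85 CPM, a 13.5-fold difference (log2 fold change 3.75 ± 0.51 SE, edgeR adjusted p = 0.00257). Cfi lies on chromosome 3 from 129835884 to 129875332 on the plus strand of mm10.

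Cd55 encodes decay-accelerating factor, a membrane protein that splits both C3-cleaving enzymes. It stood at 73.7, 41.2 and 40.8 CPM in mice 1, 2 and 3 among the libraries labelled Axin2-, and at 71.8, 69.2 and 54.1 CPM in those labelled Axin2+. It was higher in the library labelled Axin2+ in mice 2 and 3 only, and the fractions overlapped. The log2 fold change of 0.32 ± 0.25 (SE) missed the threshold (edgeR adjusted p = 0.382). Without mouse 1's library labelled Axin2- it passed (log2 fold change 0.69, edgeR adjusted p = 0.0392), while without both libraries of mouse 2 it was 0.14. The copy Cd55b, listed as Daf2, held 2 to 27 reads per library, and Cd55 held 1979 to 4159.

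Cd59a encodes a membrane protein that blocks the last step, assembly of the membrane attack complex. It stood at 9.935, 12.6 and 8.05 CPM in mice 1, 2 and 3 among the libraries labelled Axin2-, and at 14.4, 17.4 and 19.3 CPM in those labelled Axin2+. All 3 libraries labelled Axin2+ were above all 3 labelled Axin2-, by a small margin. The means were 10.2 ± 2.30 and 17.05 ± 2.49 CPM, a log2 fold change of 0.74 ± 0.22 (SE, edgeR adjusted p = 0.0459). That call was near the threshold and ended in 11 of 17 other settings. Among them were the block by mouse (adjusted p = 0.0724 in edgeR), upper quartile scaling (0.0587) and no filter on low counts (0.0504). It also ended without either library labelled Axin2- of mice 1 and 3, or that labelled Axin2+ of mouse 2 or 3 (edgeR adjusted p = 0.102 to 0.131).

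The copy Cd59b lies beside Cd59a on chromosome 2 and held 13 to 62 reads per library, against 391 to 1039 for Cd59a. The first 120 coding bases of Cd59a and the 117 bases of Cd59b that align with them, from GENCODE M21, are shown because they tell how far reads can separate the pair. Capitals mark 8 substituted positions and, in Cd59a, 3 bases with no partner in Cd59b.
Cd59a: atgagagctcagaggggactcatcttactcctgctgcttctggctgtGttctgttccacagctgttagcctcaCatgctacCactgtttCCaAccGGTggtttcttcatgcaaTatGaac
Cd59b: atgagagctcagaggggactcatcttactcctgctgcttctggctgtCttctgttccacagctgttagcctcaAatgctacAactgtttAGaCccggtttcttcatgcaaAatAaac

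Over the whole coding sequences 354 bases paired, of which 85.0% were identical. Over the longest coding Cd59a transcript, 3.98% of the 50-base windows occur in Cd59b. With the reads of both genes added the log2 fold change was 0.73 and did not pass (edgeR adjusted p = 0.0524).

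Serping1 encodes the C1 inhibitor, which blocks the proteases C1r, C1s and those of the lectin route. It was the only tested gene of the 9 with a negative fold change. It stood at 331, 326 and 249.6 CPM in mice 1, 2 and 3 among the libraries labelled Axin2-, and at 292, 141 and 195 CPM in those labelled Axin2+. In 3 of 3 mice the library labelled Axin2+ was the lower one, but the fractions overlapped through mouse 1. The log2 fold change of -0.53 ± 0.27 (SE) missed the threshold (edgeR adjusted p = 0.184). Without mouse 1's library labelled Axin2+ it passed (log2 fold change -0.84, edgeR adjusted p = 0.0282).

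**Figure D2:**
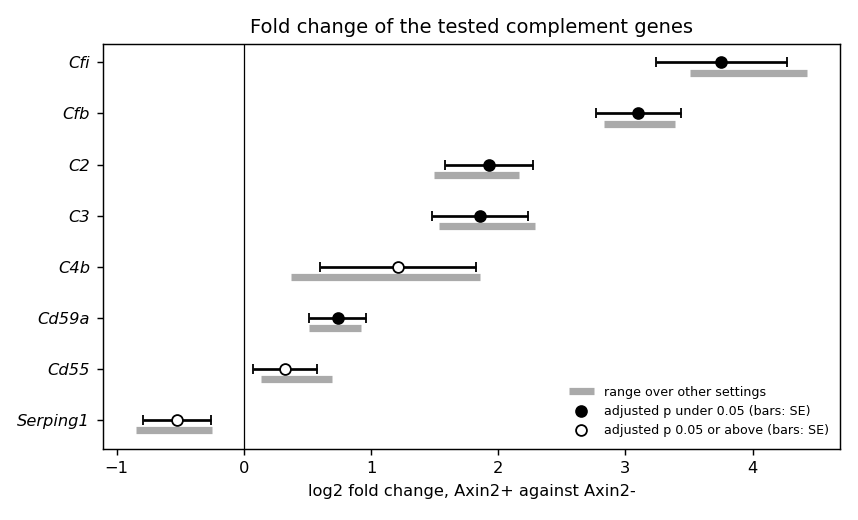
Log2 fold change of the 8 tested complement genes between the libraries labelled Axin2+ and Axin2- (horizontal axis), with SE bars. Filled points had an adjusted p under 0.05, open points did not, and grey bars give the range over the other settings. Cfi and Cfb lie farthest to the right, at 3.75 and 3.10, and Serping1 alone lies left of 0.

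Per kilobase of exon, C3 remained the most abundant of the 9 transcripts in the libraries labelled Axin2+. Its level there was 534 ± 195 CPM per kb, against 147 ± 62.6 in the libraries labelled Axin2-. Among 14801 tested genes with a matched length it ranked 15, 45 and 26 in mice 1, 2 and 3 among the libraries labelled Axin2+. Serping1 came next there with 90.1 ± 32.96 CPM per kb, then C4b with 47.5 ± 36.6 and Cfb with 27.4 ± 8.39. Serping1 overlapped with C4b in range over the libraries, though it was the higher one within each library labelled Axin2+. C4b overlapped with Cfb, whereas the lowest C3 value, 371, was above the highest Serping1 value, 126. Lower still were C2 with 14.7 ± 6.80, Cd55 with 13.4 ± 1.96, Cd59a with 9.41 ± 1.37 and Cfi with 3.38 ± 0.831 CPM per kb. C2 overlapped in range with Cfb, Cd55 and Cd59a, though it was below Cfb within each library labelled Axin2+. In mouse 2's library labelled Axin2+ C2 was below Cd59a, at 9.46 against 9.61 CPM per kb. Cd59a lay below Cd55 and Cfi below Cd59a in every library labelled Axin2+. In the libraries labelled Axin2- C3 and Serping1 overlapped, Serping1 standing at 107 to 142 CPM per kb and C3 at 109 to 219.7, and the mean of Cfb, 3.19 ± 1.05, was above that of Cfi alone among the tested genes of the 9. Cfb and C2 overlapped there, at 1.98 to 3.88 and 3.223 to 4.85 CPM per kb.

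The rest of the complement system moved in both directions. Of 54 further complement genes 41 were tested, of which 15 rose and 8 fell in the libraries labelled Axin2+, and their median log2 fold change was -0.04. These counts were 4 and 4 without mouse 1's library labelled Axin2-, 8 and 5 without that of mouse 3, 7 and 3 without mouse 2's library labelled Axin2+, 14 and 5 without that of mouse 3, and 7 and 4 with the mouse as a block. The 12 that missed the threshold with that block were C1qb, Cfp, C9, Cpn1, C3ar1, Itgam, Itgb2, Cd93, C1ra, C1rb, C1s2 and Csmd1 (edgeR adjusted p = 0.0515 to 0.108). Of the 23 genes, Clu, Vsig4 and Colec12 passed in every setting tried.

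At the start of the classical route the recognition genes and the protease genes went opposite ways. The C1q genes C1qa, C1qb and C1qc rose, C1qa from 14.5 ± 10.5 to 205 ± 167 CPM (log2 fold change 3.82 ± 0.87 SE, edgeR adjusted p = 0.0185). The proteases C1ra, C1rb, C1s1 (listed as C1s) and C1s2 (listed as Gm5077) fell, and these are the proteases that Serping1 inhibits. C1s1 fell from 319.9 ± 58.7 to 155 ± 35.1 CPM and C1ra from 103 ± 18.7 to 58.1 ± 10.8 CPM. The proteases form pairs of close copies, so reads may be split uncertainly within a pair. Without mouse 1's library labelled Axin2-, C1qa, C1qb and C1qc missed the threshold (edgeR adjusted p = 0.0651, 0.0775 and 0.0528). C1s1 passed with each single library left out, C1ra missed the threshold without mouse 2's library labelled Axin2+ (0.0575), and C1rb and C1s2 missed it without any single library other than that labelled Axin2- of mouse 2.

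In the list used for the lectin route 1 of 5 tested genes rose, the ficolin Fcna, from 0.732 ± 0.730 to 19.4 ± 12.9 CPM. The collectin Colec12 fell, from 228 ± 32.6 to 87.8 ± 14.2 CPM, and whether it acts in that route here was not tested. With mouse 1's library labelled Axin2- left out Fcna missed the threshold (edgeR adjusted p = 0.0608). Cfp, or properdin, which stabilises the alternative enzyme, rose from 7.73 ± 4.14 to 32.4 ± 23.2 CPM (edgeR adjusted p = 0.0450), but not without any single library other than that labelled Axin2+ of mouse 3. Terminal components were scarce: 3 of 7 were tested and C9 alone rose, with 4 reads against 98. That call ended when any single library was left out other than that labelled Axin2- of mouse 3 or Axin2+ of mouse 1.

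Among the further regulators Clu, which encodes clusterin, rose from 14.6 ± 4.81 to 83.9 ± 27.3 CPM (log2 fold change 2.52 ± 0.34 SE, edgeR adjusted p = 0.00244). Vsig4, a receptor for C3 fragments on resident macrophages, had 4 reads over the 3 libraries labelled Axin2- and 940 over the 3 labelled Axin2+, of which 718 came from mouse 1. Cpn1, a peptidase that trims C3a and C5a, had 9 reads against 108, and its call ended without any single library. Vtn, Csmd1 and Thbd fell, Vtn, which encodes the inhibitor vitronectin, from 6.24 ± 3.59 to 0.690 ± 0.302 CPM. Vtn passed with each single library left out, whereas Csmd1 and Thbd missed the threshold in 4 of 6 such fits each. The membrane regulator Cr1l had 21.1 ± 4.87 and 25.5 ± 0.753 CPM and did not pass (edgeR adjusted p = 0.320).

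Of the 9 complement receptor genes 6 rose and 0 fell. C3ar1, the receptor for C3a, rose from 5.43 ± 4.72 to 73.3 ± 50.6 CPM, and C5ar1, for C5a, from 2.65 ± 1.76 to 34.8 ± 26.2 CPM. Itgam and Itgb2, the chains of complement receptor CR3, rose as well, as did Cd93 and C5ar2 (listed as Gpr77). Each of the 6 missed the threshold when some single libraries were left out, C3ar1 and Itgb2 in 4 and 5 of 6 such fits (edgeR adjusted p up to 0.118 and 0.0932), Itgam in 3, Cd93 and C5ar2 in 2 each, and C5ar1 in 1. In the libraries labelled Axin2+ all 6, and C1qa, were highest in mouse 1 and lowest in mouse 3. The summed macrophage markers had that order there, but so did the summed epithelial and fat cell markers. The cells these transcripts came from were not tested.

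**Figure D3:**
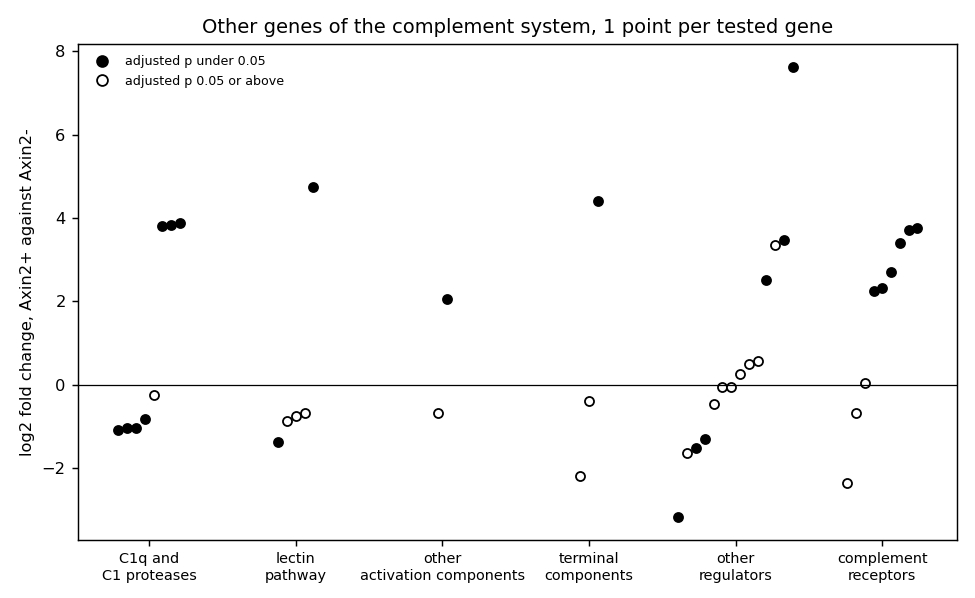
Log2 fold change (vertical axis) of the 41 tested further complement genes by group (horizontal axis), 1 point per gene, filled where the adjusted p was under 0.05. The C1q genes and most receptors lie above 0, and the proteases of C1 lie below 0.

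Markers of other cell types moved with the fraction and with the mouse. Macrophage markers, among them Cd14, Fcgr1 and Mrc1, summed to 95.5 to 304 CPM in the libraries labelled Axin2- and, in those labelled Axin2+, ranged from 644 CPM in mouse 3 to 3403 CPM in mouse 1. Of 12 such markers 10 rose, but 2 to 5 did when any single library other than that labelled Axin2+ of mouse 3 was left out. Within mice 1, 2 and 3 the summed macrophage markers were 12.9, 18.6 and 2.12 times as high in the library labelled Axin2+, whereas Cfb was 9.51, 5.65 and 12.3 times and C3 3.42, 3.28 and 4.40 times as high. Cfi was 17.6, 19.2 and 9.92 times, C4b 2.58, 2.81 and 1.404 times, C2 4.61, 2.94 and 3.49 times and Cd59a 1.45, 1.38 and 2.40 times as high. Mouse 3, which had the smallest macrophage ratio, thus had the largest ratios of Cfb, C3 and Cd59a and the smallest of Cfi and C4b, and the ratio of C2 was largest in mouse 1. In mice 1, 2 and 3 the ratio of the summed epithelial markers was 16.1, 9.39 and 7.86, also smallest in mouse 3. The ratios were 6.78, 9.79 and 16.7 for uterine gland markers, 2.48, 1.11 and 1.59 for mesothelial and 1.28, 2.11 and 1.25 for endothelial markers. Mesothelial markers summed to 183 to 236 CPM and to 203 to 587 CPM, with mouse 1 highest in both fractions, as for C3 and C2. Mouse 1 was also highest in both fractions for the summed fat cell markers and the summed lymphocyte markers. Of 8 mesothelial markers tested 5 rose, among them Msln, Upk3b and Gpm6a, and 1, Wt1, fell. Wt1 made up most of the sum in each library labelled Axin2-, at 184, 138 and 162 CPM in mice 1, 2 and 3. It stood at 68.4, 64.7 and 92.3 CPM in those labelled Axin2+. Msln stood at 11.3, 3.97 and 5.21 CPM and at 87.8, 26.3 and 46.8 CPM. Of the uterine gland markers 6 of 7 tested rose, with sums of 20.2 to 35.1 CPM and 236 to 336 CPM. Endothelial markers rose in 6 of 10 cases, with sums of 203 to 246 CPM and 259.8 to 469 CPM. Cdh5, named here for its share, was the largest part of the sum in each library labelled Axin2-. It stood at 98.9, 169 and 151 CPM there in mice 1, 2 and 3, and lower, at 55.1, 88.3 and 93.4 CPM, in those labelled Axin2+. Cdh5 did not pass (edgeR adjusted p = 0.0559). Of the lymphocyte markers 5 of 9 fell, with sums of 17.9 to 42.2 CPM and 0.982 to 5.66 CPM. The part of these cell types in the complement differences was not tested.

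**Figure D4:**
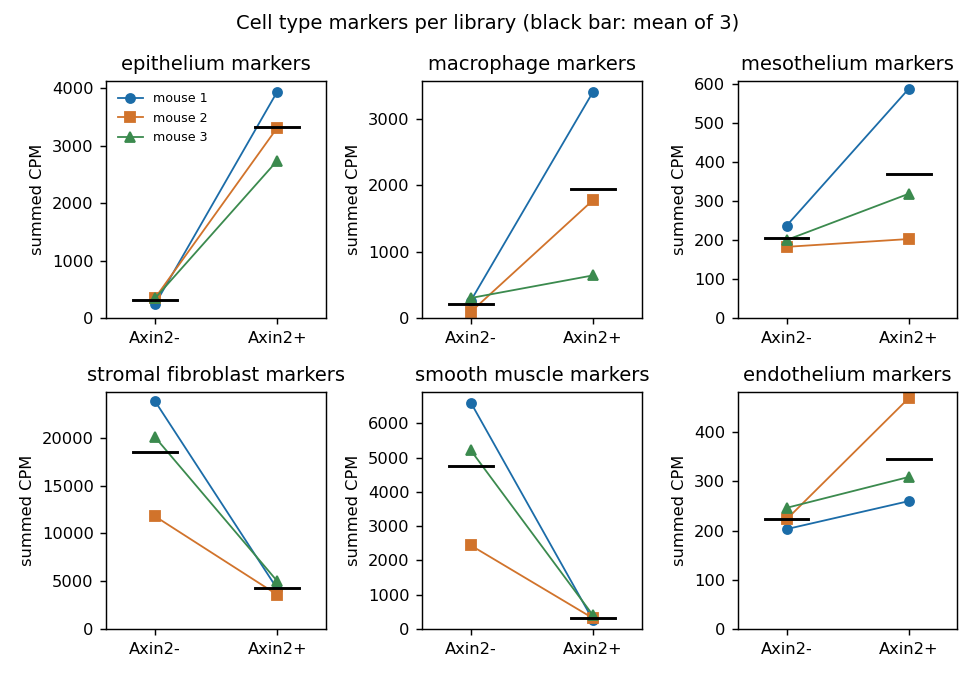
Summed CPM of fixed marker lists (vertical axes, each from 0) in the libraries labelled Axin2- and Axin2+ (horizontal axes), with symbols for the 3 mice and black bars for the means. Epithelial and macrophage markers are higher in the libraries labelled Axin2+, with macrophage sums of 644 to 3403 CPM, and stromal and smooth muscle markers are lower.

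Over the 6 libraries, which come from 3 mice and 2 fractions, the genes most like each complement gene were ranked by Pearson correlation of log2 CPM. This describes these libraries only, since 27.3% of all tested genes differed between the fractions. Closest to C3 was Msln, the mesothelial surface protein mesothelin (r = 0.995 over 6 libraries), and Msln was also among the 3 closest to C2 (r = 0.991). Closest to Cfb were Xpr1, Gpr4 and the regulator Clu (r = 0.999, 0.997 and 0.997). Closest to Cfi were Pbld1, Sp5 and Adcy6 (r = 0.999, 0.998 and 0.996), of which Sp5 encodes a transcription factor induced by Wnt signals. Closest to Serping1 was Slc4a4, a bicarbonate transporter (r = 0.996), which did not pass the test.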

How the data were processed

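Total RNA of 6 libraries was sequenced after ribosomal RNA removal, per the labels' protocols. The authors deposited read counts per gene, and their comparison table gives per gene a log2 fold change, a log2 CPM, an F statistic treated as a score, and p-values, per the file headers. The submitters' processing notes name STAR 2.5.3a, featureCounts 1.5.3, edgeR 3.22.5 and mm10. Neither annotation version nor strand setting is given in the sources used here. In the authors' deposited table Cfb has a log2 fold change of 3.10 and an FDR of 0.00104.

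Counts were fitted in R 4.3.3 with edgeR 4.0.16 (filterByExpr, TMM, robust quasi-likelihood F test, no block), with Benjamini-Hochberg adjustment over 16896 genes at 0.05. SE is the log2 fold change over the root of F. The fit was tested on simulated data. Alternatives were other scalings and filters, DESeq2 1.42.0, a block by mouse, added copies, and each library left out. Leaving out both libraries of a mouse was chosen after seeing the data. Same-mouse libraries' deviations correlated at 0.27, 0.01 and -0.07, and those of other pairs at up to 0.25. The pairing comes from the labels' protocol, which calls the numeral the mouse number, and these correlations do not show it.

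The members and lists were chosen with earlier results of these data known. Named were the 9 members, Axin2, further complement genes that passed or were most abundant in their list, up to 3 markers per list by p, and the 3 nearest genes per member with at least 5 CPM. An item that this rule names is not reported here. Of 185 listed symbols 178 matched directly and 6 through RefSeq synonyms. Cd59a and Cd59b were aligned with Biopython 1.88. Coordinates and lengths are from GENCODE M21 (GRCm38, the assembly behind mm10).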

Additional observations from a re-analysis of the deposited data

How the results depend on the processing

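Cfb and Cfi passed in all 16 other settings, with log2 fold changes of 2.83 to 3.39 and 3.51 to 4.43. C2 missed the threshold only without both libraries of mouse 3 (log2 fold change 2.00, edgeR adjusted p = 0.0561), and C3 missed it there (edgeR adjusted p = 0.0812), without mouse 2 (0.0604) and without mouse 3's library labelled Axin2-. The members that rose numbered 2 to 5 when 1 library or mouse was left out, 2 of them without mouse 3, and those that fell 0 to 1. With the block by mouse 5 members rose, C4b among them in place of Cd59a. The further complement genes that rose numbered 2 to 14 and those that fell 3 to 7 with libraries or mice left out, and 7 and 4 with the replicate block. Axin2 passed in DESeq2 (log2 fold change -0.62, adjusted p = 0.0338) and in edgeR without mouse 3's library labelled Axin2+ (-0.82, adjusted p = 0.0290), and ranged from -0.82 to -0.37 when libraries or mice were left out. Genes that had not passed changed sign: Calr to -0.0044 with upper quartile scaling and to -0.15 at the lowest when libraries or mice were left out (highest 0.37), C8g to 0.00024 (lowest -0.99), and Daf2 to -0.010 (highest 1.97). The cause of these changes was not tested. Fits with 1 mouse left out have 2 libraries per fraction. Genes with few reads, such as Cfd, are limited by depth.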

Other observations

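Genes of the cytokine signals known to induce complement synthesis were listed as well, and those named here fall outside the rule for named genes and were picked with their values in view. Of 15 tested 2 rose, Jak2 and Ifngr2, 1 fell, Jak1, and 12 did not pass, with a median log2 fold change of 0.01. Over all tested genes 14.5% were higher and 12.8% lower. Jak2, a kinase gene, had 110.4 ± 7.16 CPM (SD, n = 3 each) among libraries labelled Axin2- against 313 ± 34.6 CPM among those labelled Axin2+, a log2 fold change of 1.502 ± 0.13 (SE, edgeR adjusted p = 0.000501). Ifngr2, a chain of the interferon gamma receptor, stood at 20.9 ± 2.06 and 47.8 ± 7.72 CPM (edgeR adjusted p = 0.00274). Stat3, which acts below these kinases, had 183 ± 24.7 and 203 ± 22.7 CPM and did not pass, nor did Nfkb1 and Rela. The call of Jak1 (edgeR adjusted p = 0.0372) ended without 4 of the 6 single libraries and with library size scaling.

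C6, a terminal component that was not tested for its low counts, had 226 reads in mouse 1's library labelled Axin2+, and 2 to 14 reads in the other 5 libraries. The gene and library were singled out after the values were seen.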
